A study of Mus musculus with 12 samples.

Results

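The 7 genes described here encode receptors and enzymes linked to extracellular ATP, NAD and adenosine: P2rx7, Entpd1, Nt5e, Adora2a, Cd38, Ada and Art2b. They were taken by gene symbol from 24377 genes in a transcript-level expression matrix of 12 RNA-seq libraries, and all 7 passed the filter on low values that kept 10084 genes. The libraries are CD4 T effector cells recovered from the islets and the spleens of 6 recipient mice, 1 islet and 1 spleen library per mouse. The 4 groups, of 3 libraries each, are islet cells of Y16A origin, islet cells of WT origin, spleen cells of Y16A origin and spleen cells of WT origin.

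Cells of Y16A origin came from NOD.InsY16A Tg donors and cells of WT origin from NOD donors. NOD is a mouse strain that develops autoimmune diabetes, and the transgenic donors carry an insulin gene with the Y16A change; the promoter of the transgene is not given in the sources used here. All donors were females of 6 to 8 weeks that had been immunized with insulin C19A. Splenocytes were expanded in culture for 2 weeks with 10 µM peptide, which the design text names as InsB9-23, and CD4 cells were purified on magnetic beads to over 95% with under 1% Foxp3-positive cells. Each recipient was a female NOD.scid mouse of 8 to 10 weeks that received 5 M cells; such mice lack T and B cells of their own but keep innate immune cells. The titles read pancreas where the tissue entry reads pancreatic islets. The genotype entry follows tissue instead of origin (NOD in all islet samples, NOD.Y16A in all spleen samples); since that goes against the titles and the design text, the groups were taken from those.

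ATP and NAD are kept inside healthy cells and leave them when cells are damaged or stimulated. ATP opens the ion channel P2RX7 on T cells, and in the mouse the enzyme ART2.2, encoded by Art2b, uses extracellular NAD to modify P2RX7 and so activates it; strong activation kills T cells. CD39 (Entpd1) and CD73 (Nt5e) act in turn on ATP and AMP to form adenosine, which dampens T cells through the receptor encoded by Adora2a. CD38 consumes NAD, and adenosine deaminase (Ada) converts adenosine to inosine.

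P2rx7, the channel gene, is where the members' data differed most firmly between tissues, and its start regions are shown for that reason. It lies on chromosome 5 from 122643927 to 122692336 in RefSeq on GRCm38.p6. Its transcripts begin in a pair of regions, and the second RefSeq start lies 6.46 kb after the first. The first of the 300-base windows below runs from 250 bases before the first start to 50 after it; its capitals mark a match to TGANTCA, the letters that AP-1 factors are known to bind, which begins 249 bases before the start. The second window covers the second start in the same way. Its capitals mark the start codon of the transcript that begins there. In GENCODE the short transcript described below begins at 122644009, past the end of the first window.
P2rx7 first start, chr5:122643677-122643976, plus strand: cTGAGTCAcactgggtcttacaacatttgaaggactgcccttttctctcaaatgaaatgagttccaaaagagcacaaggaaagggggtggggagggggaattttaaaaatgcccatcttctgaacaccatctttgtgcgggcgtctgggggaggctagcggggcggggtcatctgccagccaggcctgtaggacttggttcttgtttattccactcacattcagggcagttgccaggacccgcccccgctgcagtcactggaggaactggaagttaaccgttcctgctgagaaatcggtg
P2rx7 second start, chr5:122650133-122650432, plus strand: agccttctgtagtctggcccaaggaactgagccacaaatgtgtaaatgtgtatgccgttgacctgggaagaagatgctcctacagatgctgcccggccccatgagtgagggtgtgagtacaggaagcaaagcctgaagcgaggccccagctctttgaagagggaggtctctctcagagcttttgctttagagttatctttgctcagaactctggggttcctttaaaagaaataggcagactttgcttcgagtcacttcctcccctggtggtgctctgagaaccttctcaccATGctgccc
TGANTCA reads the same on both strands apart from its free base, and it was searched on both. It was found in the first window and not in the second, and in 2565 of 32851 RefSeq windows of this length (7.81%). Of 8 windows for 6 of the members, 2 held a match, the other being that of Art2b, where it began 104 bases before the start. A match describes letters only.

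Depth, estimated from the steps between low FPKM values, was 4.69 to 8.86 M mapped fragments per library. FPKM, fragments per kilobase of transcript and per M mapped fragments, is the unit of every level below. The T cell genes Cd3e and Cd4 were high in both tissues, Cd3e at 266 to 501 FPKM in islet and 204 to 299 FPKM in spleen libraries and Cd4 at 64.1 to 129 FPKM in islet and 66.0 to 117 FPKM in spleen libraries. Several marker lists of other cells moved with tissue. The sums of the CD8 and NK cell, B cell, dendritic cell, endothelial and fibroblast lists overlapped between tissues. The summed FPKM of 19 acinar and duct genes was 1491 to 5581 in islet and 2.16 to 8.96 in spleen libraries, that of 7 neutrophil genes was 0 to 2.65 in islet and 95.0 to 240 in spleen libraries, and that of 10 erythroid and platelet genes was 5.13 to 124 in islet and 126 to 2378 in spleen libraries. The sum of 11 macrophage and monocyte genes was 32.3 to 63.7 in islet and 73.9 to 160 in spleen libraries, with Tyrobp at 0 to 5.82 FPKM in islet and 17.2 to 70.0 FPKM in spleen libraries, Csf1r at 0 to 0.80 FPKM in islet and 0.0297 to 1.54 FPKM in spleen libraries, and Adgre1 at 0 to 0.653 FPKM in islet and 0 to 1.45 FPKM in spleen libraries. The 10 endocrine genes summed to 394 and 1082 FPKM in islet WT libraries 1 and 2, to 0.396 to 54.0 in the other 4 islet libraries, and to 0 to 8.82 in spleen libraries. The 6 regulatory T cell genes, of which activated T cells also express several, summed to 199 to 367 FPKM in islet and 87.9 to 214 FPKM in spleen libraries, while their defining gene Foxp3 was at 0 to 4.57 FPKM in islet and 0.445 to 7.80 FPKM in spleen libraries. The part of these other cells in the values below was not tested. In such bulk libraries, fewer cells of a type and less RNA per cell cannot be told apart.

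Ranked by its mean over the 12 libraries, P2rx7 was the highest of the 7 genes at 19.3 FPKM, above 84.1% of tested genes, and Art2b followed at 14.4 FPKM, above 80.0%. Adora2a averaged 6.46, Nt5e 4.40, Cd38 4.10, Entpd1 3.86 and Ada 2.59 FPKM. The median number of fragments behind a library's value was about 107 for P2rx7 and about 54.5 for Art2b, and only about 14 for Ada, so the Ada values carry the most counting error.

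**Figure D1:**
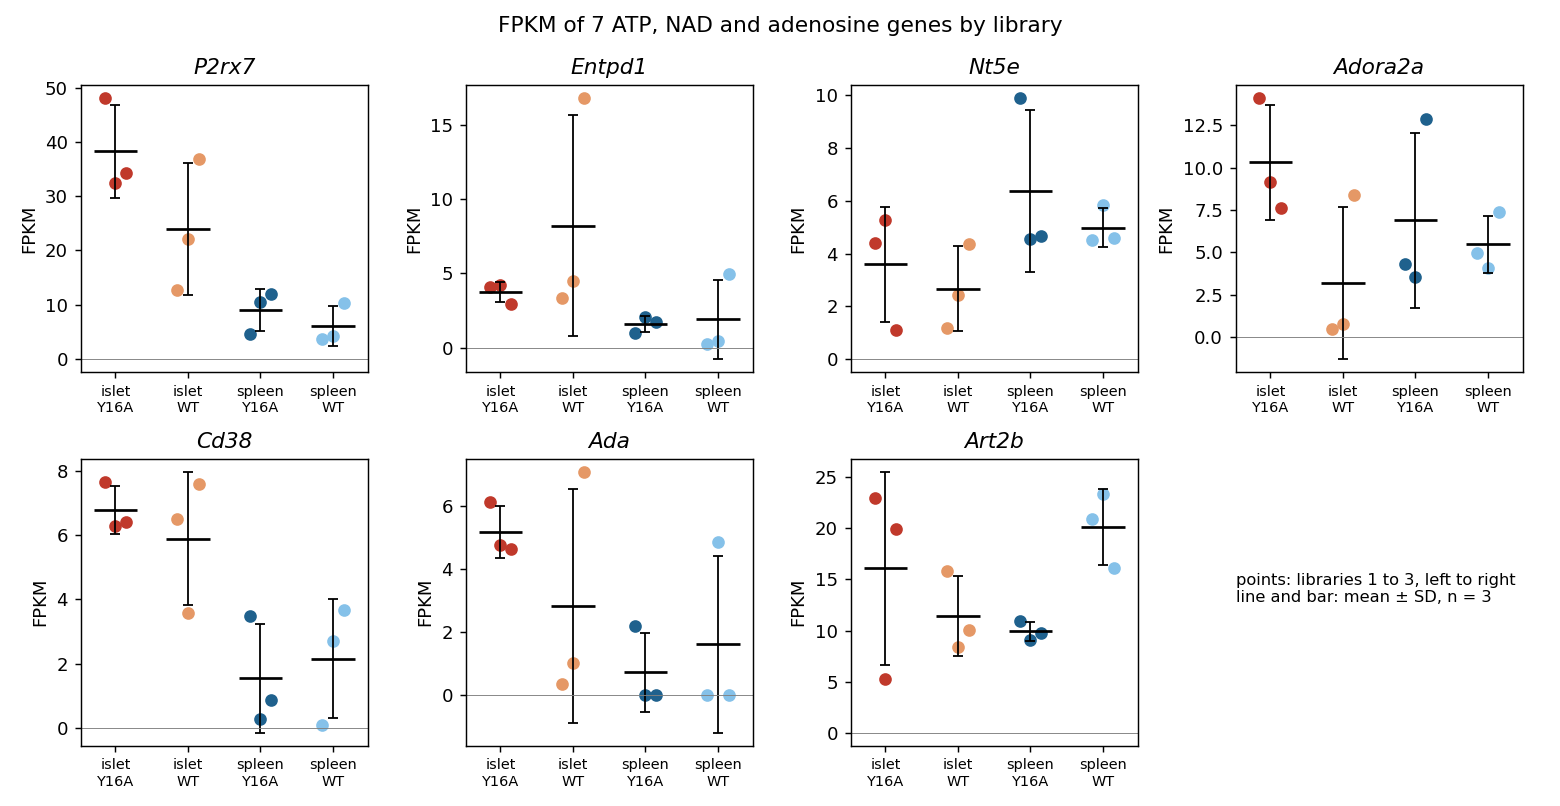
FPKM (vertical axes, linear, a scale for each gene) of the 7 genes in islet Y16A, islet WT, spleen Y16A and spleen WT libraries; each point is a library, and lines and bars are the mean ± SD of 3. The 6 islet P2rx7 values, 12.6 to 48.1 FPKM, all lie above the 6 spleen values, 3.62 to 12.0 FPKM.

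P2rx7 was higher in the islet libraries than in the spleen libraries. It measured 48.1, 32.4 and 34.3 FPKM in islet Y16A libraries and 12.6, 22.2 and 36.8 FPKM in islet WT libraries, against 4.60, 10.6 and 12.0 FPKM in spleen Y16A libraries and 3.62, 4.26 and 10.3 FPKM in spleen WT libraries. The lowest islet value, from WT mouse 1, stood just above the highest spleen value, from Y16A mouse 3. The tissues thus did not overlap in this sum over the gene's transcripts, which are taken apart below. Of tested genes, 1.68% had 6 islet values all above the 6 spleen values. Within each mouse the islet library was higher. The ratio was 10.4, 3.07 and 2.87 in the Y16A mice and 3.49, 5.21 and 3.57 in the WT mice. Of tested genes, 6.71% were higher in islet in all 6 mice. The estimated fragments behind the P2rx7 values, which are not divided by transcript length, did overlap between tissues. Islet WT library 1 had about 64 at a depth of 5.78 M. Spleen Y16A libraries 2 and 3 had about 136 at 8.65 M and about 78 at 7.52 M. The other islet libraries had about 145 to 255.

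Over both origins averaged, the log2 change of P2rx7, islet over spleen, was 1.68 (SE 0.34), with an adjusted p of 0.0029 by limma. This and the other log2 changes are on the log2(FPKM + 1) scale and relative to the median change of well expressed genes, which was 0.245 for this comparison. P2rx7 was the 1 member of 7 called at an adjusted p under 0.05, where 2.31% of tested genes were called, and 1.88% were called higher in islet. The call held under every one of the 23 settings run, with adjusted p between 0.000846 and 0.0151.

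The tissue difference of P2rx7 was of like size within each origin. In cells of Y16A origin it averaged 38.3 ± 8.57 FPKM in islet and 9.04 ± 3.91 FPKM in spleen libraries (SD, n = 3 each), a log2 change of 1.71 (SE 0.48, adjusted p = 0.0482 by limma). That call rests on a narrow margin: it was lost without any 1 of the 6 libraries compared, without islet WT library 2 or spleen WT library 2, and under 6 of the other settings, with adjusted p between 0.0206 and 0.228. In cells of WT origin P2rx7 averaged 23.9 ± 12.2 FPKM in islet and 6.06 ± 3.69 FPKM in spleen libraries (SD, n = 3 each), a log2 change of 1.66 (SE 0.48), and was not called (adjusted p = 0.115 by limma). The share of all tested genes called was 1.17% in the first and 0.813% in the second. The difference between the tissue changes of the origins was 0.06 (SE 0.69, adjusted p = 1 by limma), an error too wide to show that the origins acted alike.

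**Figure D2:**
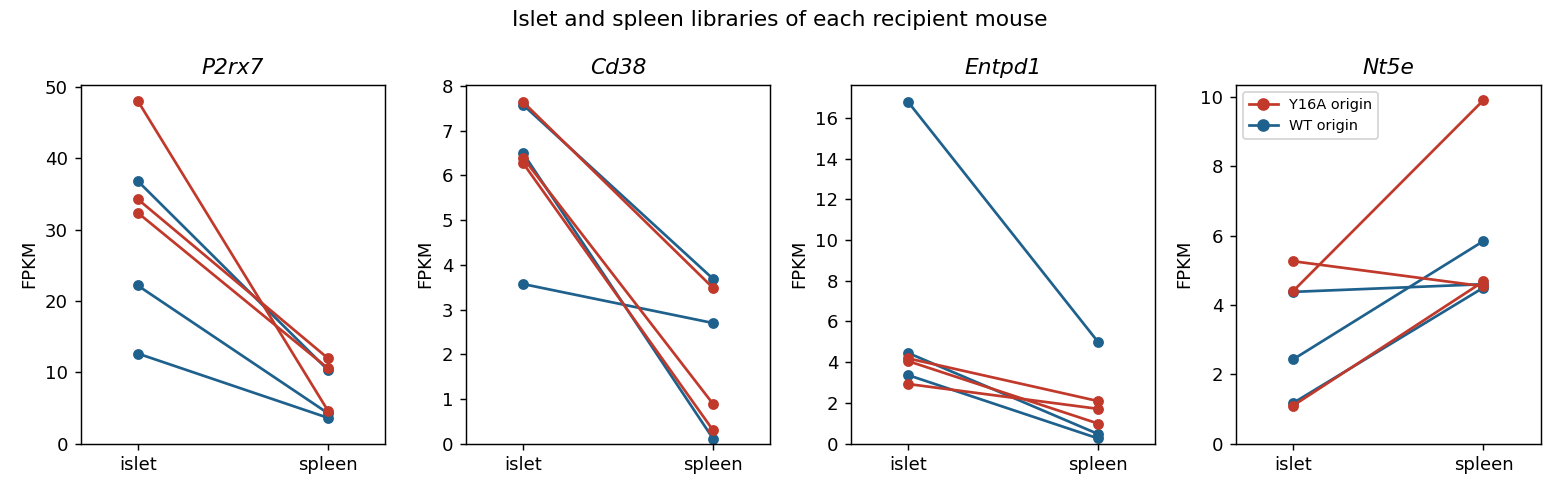
FPKM (linear axes) of P2rx7, Cd38, Entpd1 and Nt5e in the islet and the spleen library of each recipient mouse, joined by a line; red marks cells of Y16A origin and blue cells of WT origin. P2rx7, Cd38 and Entpd1 are higher in islet in 6 of 6 mice, and Nt5e is lower in islet in 5 of 6.

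The matrix divides P2rx7 among 5 RefSeq transcripts, a division that Cufflinks estimates from reads that largely share exons. NM_001038887 is a short transcript of 4 exons with 153 codons that shares its first 3 exons with the long forms and ends early. It carried most of the islet FPKM, at 30.5, 19.4 and 28.9 FPKM in islet Y16A and 8.57, 18.1 and 21.2 FPKM in islet WT libraries, against 2.48, 0 and 9.13 FPKM in spleen Y16A and 1.90, 2.43 and 6.60 FPKM in spleen WT libraries. At 712 bases it is the shortest of the 5 transcripts. FPKM divides by length, so its part of the islet fragments is smaller than its part of the FPKM. Its share of the gene's FPKM was 57.5% to 84.3% in islet libraries and 0% to 76.3% in spleen libraries, so the shares overlapped. In the same fit across 11914 transcripts, an analysis added after seeing the data, its log2 change, islet over spleen, was 2.20 (SE 0.51, adjusted p = 0.0337 by limma). That call was lost in turn without each of the 3 islet Y16A libraries, islet WT 2 and 3, spleen Y16A 1, and spleen WT 1 and 2, with adjusted p from 0.00592 to 0.0934.

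NM_001284402 begins at the second start and has 592 codons; in mouse T cells the form made from this alternative first exon is known as P2X7(k), which responds more readily to ATP and to ART2.2. It measured 10.1, 5.05 and 5.37 FPKM in islet Y16A and 4.07, 1.51 and 5.67 FPKM in islet WT libraries, against 2.13, 3.57 and 1.42 FPKM in spleen Y16A and 1.72, 1.82 and 0.674 FPKM in spleen WT libraries. Only islet WT library 2 fell within the spleen range. Its log2 change was 0.79 (SE 0.38) and was not called (adjusted p = 0.280 by limma). The long transcripts from the first start were listed in few libraries: NM_001038839 in 4 and NM_001038845 in 3 of 12, while NM_011027, which has 595 codons, was listed at 0 in all 12. All P2rx7 transcripts but the short one together measured 4.04 to 17.6 FPKM in islet and 1.72 to 10.6 FPKM in spleen libraries. Without the short transcript the tissues therefore overlapped, and no long transcript that was tested was called for islet against spleen. In the authors' deposited table, made from the islet libraries, NM_011027 stands at 28.2 FPKM in islet Y16A and 15.3 FPKM in islet WT cells, so the split between long forms differs between the deposited sources.

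**Figure D3:**
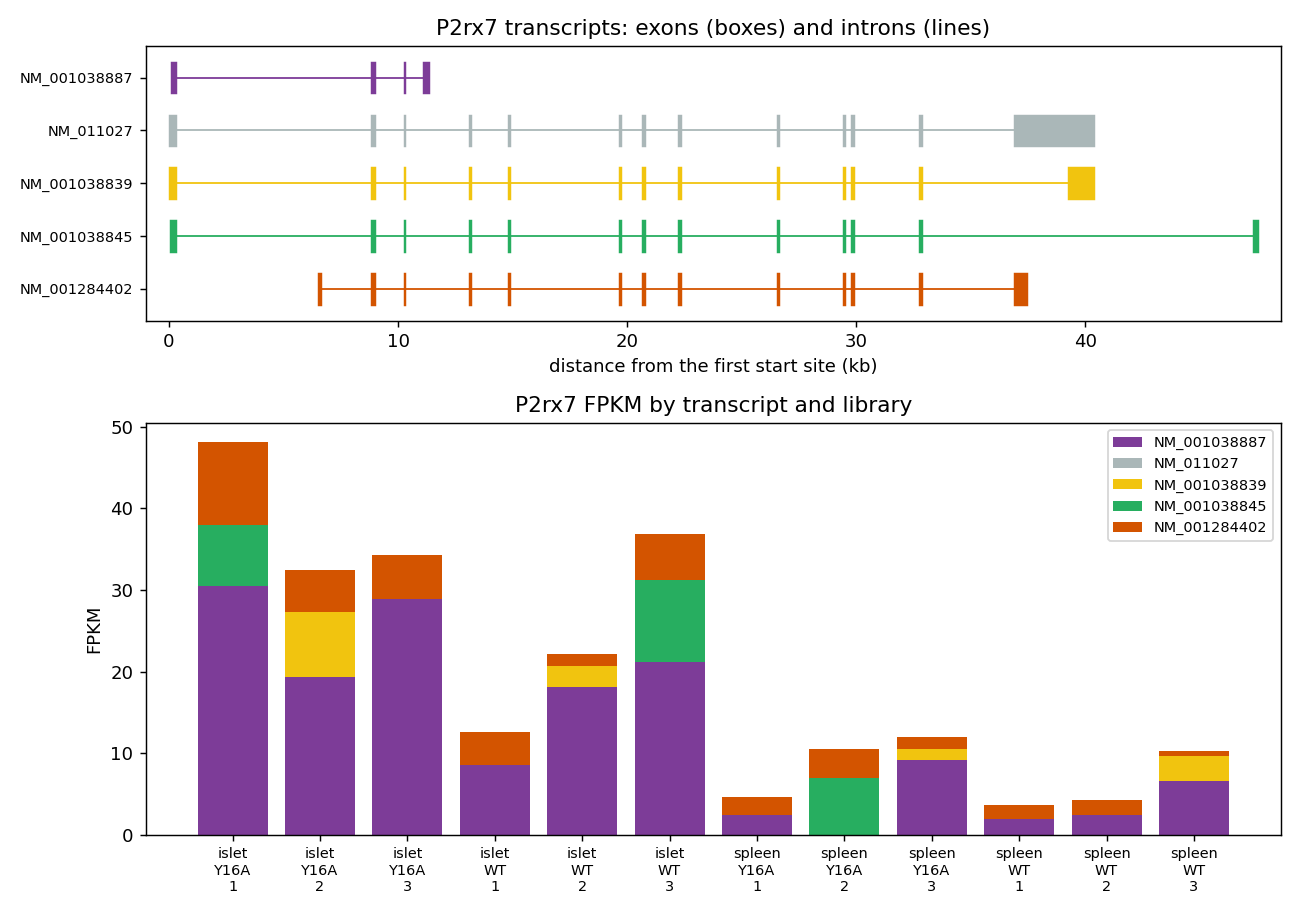
Above, exons (boxes) and introns (lines) of the 5 P2rx7 transcripts in GENCODE by distance from the first start site in kb; below, stacked FPKM of each transcript in every library, islet Y16A, islet WT, spleen Y16A, then spleen WT. The short transcript NM_001038887 is the largest part of each islet bar, and NM_011027 is listed at 0 throughout.

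Art2b, whose product activates P2RX7 on mouse T cells when NAD is present, was not called for islet against spleen. It measured 23.0, 5.28 and 19.9 FPKM in islet Y16A and 15.8, 8.36 and 10.0 FPKM in islet WT libraries, against 11.0, 9.05 and 9.72 FPKM in spleen Y16A and 20.9, 23.4 and 16.1 FPKM in spleen WT libraries. The spleen WT libraries were the steady high group and islet Y16A libraries were widely spread. The log2 change, islet over spleen, was -0.43 (SE 0.34, adjusted p = 0.875 by limma) over both origins. Within WT origin it was -0.95 (SE 0.48) and within Y16A origin 0.1 (SE 0.48), and neither was called. The interaction of tissue and origin for Art2b was 1.07 (SE 0.67) and was not called. The 3 islet WT values were all below the 3 spleen WT values, as in 3.86% of tested genes. The Art2b and Art2a transcripts are 89.3% identical over 857 aligned bases, so how reads were divided between these 2 genes is uncertain. Art2a, a related ADP-ribosyltransferase gene, averaged 6.97 ± 3.25 FPKM in islet and 10.5 ± 4.52 FPKM in spleen libraries (SD, n = 6 each). In Y16A mouse 2, the islet library with the lowest Art2b value held the highest Art2a value of the islet libraries, 12.9 FPKM.

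Cd38, the NAD-consuming enzyme, was at 7.65, 6.28 and 6.40 FPKM in islet Y16A and 6.51, 3.57 and 7.58 FPKM in islet WT libraries, against 3.48, 0.297 and 0.886 FPKM in spleen Y16A and 0.109, 2.70 and 3.69 FPKM in spleen WT libraries. Its islet value was the higher in 6 of 6 mice, and the tissues overlapped only through islet WT library 2 and spleen WT library 3. The log2 change of 1.31 (SE 0.42) missed the threshold with an adjusted p of 0.0586 by limma. Without spleen Y16A library 1 it was 1.54 (adjusted p = 0.0281), and without spleen WT library 3 it was 1.48 (adjusted p = 0.0395).

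Entpd1, encoding CD39, the ATP-hydrolysing ectoenzyme, was at 4.06, 4.19 and 2.93 FPKM in islet Y16A and 3.37, 4.46 and 16.8 FPKM in islet WT libraries, against 0.984, 2.09 and 1.71 FPKM in spleen Y16A and 0.256, 0.470 and 4.98 FPKM in spleen WT libraries. WT mouse 3 gave the highest value of both tissues. The islet library was higher in 6 of 6 mice, by 1.72 to 13.2 times. The log2 change was 1.07 (SE 0.44) and was not called (adjusted p = 0.168 by limma). With the mouse as a block the adjusted p was 0.04998, just under the threshold, and without spleen WT library 3 the change was 1.40 (adjusted p = 0.0375).

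Nt5e, encoding CD73, the enzyme that completes adenosine formation, had its higher values in spleen. It was at 4.40, 5.26 and 1.10 FPKM in islet Y16A and 1.17, 2.43 and 4.38 FPKM in islet WT libraries, against 9.90, 4.54 and 4.68 FPKM in spleen Y16A and 4.50, 5.84 and 4.60 FPKM in spleen WT libraries. The spleen values lay close together except for Y16A mouse 1, and the islet value was the lower in 5 of 6 mice. The log2 change was -1.02 (SE 0.37) and was not called (adjusted p = 0.371 by limma). Entpd1 FPKM exceeded Nt5e FPKM in 4 of 6 islet and 1 of 6 spleen libraries.

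**Figure D4:**
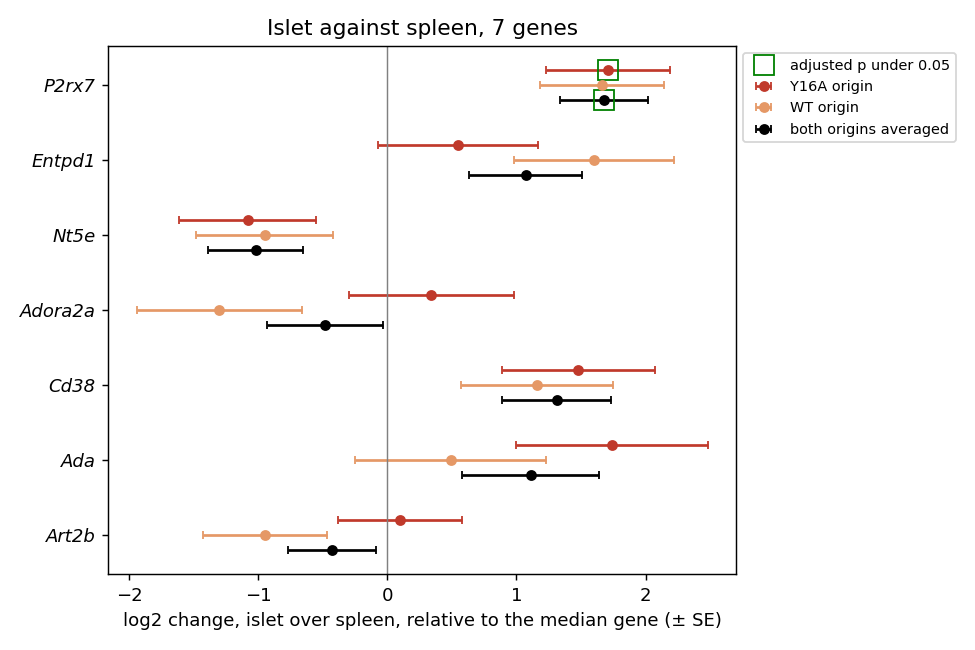
Log2 change, islet over spleen, relative to the median gene, with its standard error, for each of the 7 genes in cells of Y16A origin (red), cells of WT origin (orange) and both averaged (black); green squares mark an adjusted p under 0.05. P2rx7 is the only gene of the 7 with a square, for Y16A origin and the average.

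Adora2a, the main adenosine receptor gene of T cells, differed more between islet libraries than between tissues. It was at 14.1, 9.17 and 7.62 FPKM in islet Y16A and 0.450, 0.729 and 8.36 FPKM in islet WT libraries, against 4.27, 3.54 and 12.9 FPKM in spleen Y16A and 4.97, 4.09 and 7.36 FPKM in spleen WT libraries. The lowest of the 12 values were those of islet WT libraries 1 and 2, the libraries with the high endocrine sums given above. Their T cell gene sums of 2190 and 2337 FPKM were the lowest of the islet libraries. Whether these sums bear on Adora2a was not tested. Islet WT library 3 lay within the islet Y16A range. The log2 change of islet against spleen was -0.48 (SE 0.45, adjusted p = 0.879 by limma), and it was 0.14 without islet WT libraries 1 and 2.

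Ada, which removes adenosine, was at 6.13, 4.76 and 4.66 FPKM in islet Y16A and 0.356, 1.04 and 7.10 FPKM in islet WT libraries, against 2.19, 0 and 0 FPKM in spleen Y16A and 0, 4.87 and 0 FPKM in spleen WT libraries. It was thus above 0 in every islet library, though on only about 3 fragments in islet WT library 1, and listed at 0 in 4 of 6 spleen libraries. Spleen WT library 2 lay above islet Y16A libraries 2 and 3 and islet WT libraries 1 and 2, so the tissues overlapped. The log2 change was 1.11 (SE 0.53) and was not called (adjusted p = 0.255 by limma). The low islet values were again those of WT libraries 1 and 2.

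Across the 7 genes, the median log2 change, islet over spleen, was 1.07, beside -0.08 over all tested genes, with 4 members above and 3 below the median of well expressed genes. Within Y16A origin the median was 0.55 for the members and -0.09 for all genes, and within WT origin 0.49 and -0.05.

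Whether the origin of the cells mattered was compared within each tissue. No member, and none of the 10084 tested genes (0%), was called by limma for Y16A against WT origin in islet, in spleen or for the interaction; 476, 525 and 434 genes had an unadjusted p under 0.05. The largest member difference was that of Adora2a in islet, at 10.3 ± 3.39 FPKM in Y16A and 3.18 ± 4.49 FPKM in WT libraries (SD, n = 3 each). Its log2 change was 1.68 (SE 0.64, adjusted p = 0.966 by limma), and without islet WT libraries 1 and 2 it was 0.43. The interaction for Adora2a was 1.65 (SE 0.90, adjusted p = 1 by limma) with all libraries and 0.38 without those libraries.

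P2rx7 was 0.50 (SE 0.48) for Y16A against WT origin in islet and 0.46 (SE 0.48) in spleen, with overlapping values in both. Entpd1 in islet averaged 3.73 ± 0.692 FPKM in Y16A and 8.21 ± 7.46 FPKM in WT libraries (SD, n = 3 each), a log2 change of -0.94 (SE 0.62, adjusted p = 0.966 by limma). Without islet WT library 3, the one at 16.8 FPKM, it was -0.52. Art2b in spleen averaged 9.91 ± 0.967 FPKM in Y16A and 20.2 ± 3.70 FPKM in WT libraries (SD, n = 3 each). Its 3 Y16A values were all below the 3 WT values, as in 3.51% of tested genes, with a log2 change of -1.02 (SE 0.48, adjusted p = 0.964 by limma). In islet, Cd38, Nt5e and Art2b differed between origins by -0.04, 0.02 and 0.03 on the log2 scale, with standard errors of 0.59, 0.53 and 0.48.

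The authors' deposited table also sets islet Y16A against islet WT cells, on another quantification, and marks 0 of its 9 entries for these genes as significant, of 91 among 9815. In the authors' deposited table Adora2a stands at 28.0 FPKM in Y16A and 8.76 FPKM in WT cells (q = 0.409). Entpd1 stands at 11.5 FPKM in Y16A and 26.1 FPKM in WT cells in the authors' deposited table (q = 0.188). For Cd38 the authors' deposited table gives 20.7 FPKM in Y16A and 20.7 FPKM in WT cells (q = 0.997).

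Among 79 other genes of the pathway lists (ectonucleotidases, P2 receptors, adenosine receptors and transport, NAD enzymes, release channels, P2RX7-linked protease and inflammasome genes, cyclic AMP genes and NAD synthesis genes), 45 were tested. Over both origins, Nr4a1 and Crem were called higher in islet. The median log2 change of the tested genes was -0.14.

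Nr4a1, an immediate early gene of antigen receptor and cyclic AMP signalling, was at 144, 126 and 61.3 FPKM in islet Y16A and 46.8, 35.7 and 118 FPKM in islet WT libraries, against 1.28 to 7.09 FPKM in spleen Y16A and 2.34 to 9.92 FPKM in spleen WT libraries. The log2 change was 3.55 (SE 0.41, adjusted p = 1.08e-05 by limma). Crem, a cyclic AMP-responsive transcription factor gene, averaged 10.4 FPKM in islet and 3.72 FPKM in spleen libraries, a log2 change of 1.09 (SE 0.34). Its adjusted p of 0.0495 by limma passed narrowly, and it was called under 4 of 23 settings.

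The other receptors, enzymes and transporters with a mean of at least 5 FPKM were not called. Slc29a1, the adenosine transporter ENT1, averaged 15.9 ± 9.07 FPKM in islet and 7.00 ± 5.24 FPKM in spleen libraries (SD, n = 6 each). Dpp4, which on human T cells binds adenosine deaminase, averaged 3.67 ± 2.46 FPKM in islet and 7.49 ± 2.06 FPKM in spleen libraries. Adk, the kinase that returns adenosine to AMP, averaged 20.4 FPKM in islet and 17.1 FPKM in spleen libraries. Pnp, which acts on the inosine that Ada forms, averaged 7.24 FPKM in islet and 3.75 FPKM in spleen libraries. Panx1, an ATP release channel, averaged 16.4 FPKM in islet and 19.8 FPKM in spleen libraries.

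The genes whose log2(FPKM + 1) tracked P2rx7 most closely over the 12 libraries, among 4223 compared, were Nfkbiz (Pearson r = 0.958), Pdcd1 (0.949) and Srgn (0.935). Pdcd1, encoding the inhibitory receptor PD-1, averaged 83.5 FPKM in islet and 28.3 FPKM in spleen libraries, and Nfkbiz, encoding an atypical inhibitor of NF-kappaB, 11.2 FPKM in islet and 2.89 FPKM in spleen libraries. For Adora2a they were Fam53b (0.905), Arhgap4 (0.902) and Rbm5 (0.877), whose tissue means lay closer together, such as 20.3 FPKM in islet and 20.4 FPKM in spleen libraries for Arhgap4. For Art2b they were Nsmce3 (0.834), Pex16 (0.797) and Mpv17 (0.796). These correlations share libraries, depth and tissue and are given as a description.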

How the data were processed

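Total RNA of cells lysed with Triton X-100 was turned into amplified cDNA and Nextera XT libraries, per the labels' protocols. FPKM values were made by the authors with TopHat 1.0.0 (alignment) and Cufflinks (quantification), with mm9 as the named build, per the submitters' processing notes. Their deposited matrix lists FPKM for 36285 transcript entries, of which 99.71% (36181) matched a symbol; FPKM was summed per gene. The authors' deposited table gives a pooled FPKM for either origin in islet, and p-values and q-values; its loci lie on GRCm38 although the notes name mm9, and 1 emptied line is not used here.

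The 10084 genes that reached 1 FPKM in 3 or more libraries entered limma 3.58.1 (R 4.3.3), on the log2(FPKM + 1) scale. The model had 4 group means (8 residual degrees of freedom), moderated by empirical Bayes with a trend and robust variance. Benjamini-Hochberg adjustment ran over all genes, and the call was at 0.05. Printed log2 changes have the median change of the 4224 genes with mean above 5 FPKM subtracted, which was 0.155 (islet against spleen, WT origin), 0.326 (Y16A origin), 0.245 (both), 0.257 (Y16A against WT, islet), 0.0732 (spleen) and 0.165 (interaction); p-values belong to the changes before subtraction. The fit was tested on simulated data. Alternatives were another pseudocount, other filters, quantile and median scaling, the highest transcript, each accession once, a mouse block, plain moderation, the compared groups alone, each library left out, islet WT libraries 1 and 2 left out, and a transcript-level fit. Fragments were estimated from FPKM steps, assuming fragments of 200 bases, and cover counting error only. Sequences are from RefSeq (GRCm38.p6); Adora2a had no window. Exons are from GENCODE M21.

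Islet and spleen libraries are paired through the mouse, which the titles name; the correlation of their deviations from group means was -0.0313 to 0.0819 over 6 pairs. All 7 members and the pathway genes that were called or, for receptors, enzymes and transport, averaged at least 5 FPKM were named. Some items of the marker and pathway lists are not reported here. Members and lists were chosen with earlier results of these data known. P-values measure the spread between recipient mice; cells of 1 origin may share a culture.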

Additional observations from a re-analysis of the deposited data

How the results depend on the processing

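For Y16A origin, the 1 member called for islet against spleen, P2rx7, became 0 with a pseudocount of 0.1, with no filter on low values, with quantile normalization, with median centring, with the highest transcript in place of the sum, without trend and robust moderation and at transcript level; leaving out single libraries gave 0 to 1. For both origins averaged, the 1 call became 2 with the mouse as a replicate block, which added Entpd1, and leaving out single libraries gave 1 to 3; the block changed no other member's call. Without islet WT libraries 1 and 2 together, a choice made after seeing the data, the Adora2a change of islet against spleen turned to 0.14 and the Ada change of Y16A against WT in islet to -0.20; the cause was not tested. Over 26 gene results larger than their standard error and 573 combinations with another setting, 553 kept direction and call, 14 lost the call, 4 gained it and 2 turned direction. With no filter on low values 140 genes were called for the averaged comparison, against 233. The WT-origin and origin comparisons kept 0 members called under every setting run. Ada, at a median of about 14 fragments per library, is the member most limited by depth.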
